A study of Arabidopsis thaliana with 6 samples.

Results

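The 14-3-3 proteins of *Arabidopsis thaliana* encoded by *GRF1* to *GRF10* were followed at the level of their transcripts in guard cell protoplasts (GCPs), which are guard cells freed of their walls by enzymes. The symbol *GRF* here stands for G-box regulating factor and not for the growth-regulating factors, which share it. Members were all array probes other than controls whose identifiers matched 1 of 10 listed loci. A total of 19 of the 43603 probes matched, and they covered 9 of the 10 genes. No probe could be matched to *GRF3* (psi, AT5G38480), which is not analysed here. All plants were of the Columbia ecotype and homozygous for *gl1*, a recessive allele under which leaves lack trichomes. SS plants stayed in short days of 8 h light for 5 weeks, and SL plants received 3 weeks of these short days and then 2 weeks of long days of 16 h light. The sample labels give 100 µmol of light per square metre and second for short days and 41 for long days, so that day length and light intensity cannot be told apart. The labels also place isolation at ZT8 (8 h after lights on) for SS and at ZT16 for SL, whereas the methods of the study give ZT16 for both, so that the time of day of the SS samples is uncertain. By the labels, time of day too cannot be told apart from day length in any SL minus SS value. Each group had 3 samples, each hybridized in 1 colour to its own Agilent array, and the samples of 1 replicate number came from 1 independent plant batch, which supplied an SS and an SL sample.

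14-3-3 proteins are dimers that bind other proteins at phosphorylated serine or threonine residues and change their activity, stability or location. In guard cells they are known for binding the phosphorylated C-terminus of the plasma membrane H+-ATPase in blue light, which keeps the proton pump active while stomata open, and for binding the phosphorylated phototropins that receive this light. In rice, a 14-3-3 protein bridges the FT-like florigen and its bZIP partner. By sequence, the Arabidopsis family falls into a non-epsilon group, to which *GRF1* to *GRF8* belong, and an epsilon group, to which *GRF9* and *GRF10* belong.

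Between 28466 and 30823 probes (65.3% to 70.7%) were well above background on an array, with the fewest in SL replicate 2, and 0 spots were saturated. Replicate 1 of both groups lay on 1 slide and replicates 2 and 3 on another. All 12 guard cell marker genes, such as *MYB60* and *KAT1*, were well above background on all 6 arrays, and their summed normalized signal was 141141 to 192507 in SS and 146299 to 156729.6 in SL. All 11 mesophyll marker genes were also well above background on all 6 arrays, with a summed signal of 85401 to 189279.9 in SS and 43050.4 to 86635 in SL, and 8 of them were lower in SL by the test used below. The probes of *RBCS1A*, *LHCB1.2* and *LHCB1.3* carried most of this sum on every array. The other 3 mesophyll markers did not pass the test, among them *CA1* (log2 fold change 0.35, adjusted p = 0.0724) and *GLDP1* (0.25, adjusted p = 0.213), which read higher in SL in all 3 pairs. The 5 epidermis markers summed to 44803 to 65176 in SS and 37019 to 38635 in SL, where 1 of them, *PDF1*, was not well above background on every array, and the 3 phloem markers summed to 947 to 1932 in SS and 977 to 1206 in SL. In these pooled protoplasts, fewer cells of a type and less RNA of its marker genes per cell, in that type or another, cannot be told apart.

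None of the 9 measured genes of *GRF1* to *GRF10* was called different between SL and SS. All 19 probes were well above background on all 6 arrays. Signals were corrected for background, quantile normalized and fitted on the log2 scale with *limma*, with the replicate number as a block (paired fit), and p-values were adjusted by Benjamini-Hochberg over 28852 probes. Of the 9 measured genes at their brightest probe, 0 had an adjusted p under 0.05, as had 0 of the 19 probes. An unadjusted p under 0.05 was found for 0 of the 9 genes and 0 of the 19 probes. This stands beside 25.5% of all genes and 24.1% of all probes. Over all probes the paired fit called 1297 of 28852 (4.5%), with 387 (1.34%) higher in SL and 910 (3.15%) lower. Over the 18001 genes at their brightest probe it called 849 (4.72%), with 1.57% higher and 3.14% lower. A count of 0 among 9 is not set apart from this share, and the intervals below give what the arrays could resolve. Without the block, *limma* called 0 of 28852 probes (0%). Of the 28852, 1185 had an unadjusted p under 0.05. None of the 19 probes was among these, which is not set apart from that share either.

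*GRF4* (phi, AT1G35160), a non-epsilon member, gave normalized signals of 13153, 13344 and 10969.8 in SS replicates 1 to 3 and of 12752, 12105 and 10566 in SL. SL was slightly below SS in each of the 3 pairs, yet the groups overlapped. The log2 fold change (SL minus SS) was -0.08 (SE 0.081, 95% interval -0.28 to 0.12, adjusted p = 0.585 from the paired *limma* fit). The second probe of *GRF4* also read lower in all 3 pairs, with a log2 fold change of -0.12 and an adjusted p of 0.43. *GRF4* was the only one of the 9 genes whose brightest probe moved one way in all 3 pairs, which held for 24.6% of all genes upwards and 24.4% downwards, and with arrays scaled to their 75th percentile its log2 fold change turned to 0.11 or 0.053.

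*GRF6* (lambda, AT5G10450), whose product is known to bind phototropin 2 and to act in stomatal opening through it, was measured by 4 probes. The brightest read 26779, 11343 and 28197 in SS and 25135, 12123 and 22923 in SL. Replicate 2 was low in both groups, and the groups overlapped. Its log2 fold change was -0.098 (SE 0.1, 95% interval -0.35 to 0.15, adjusted p = 0.598). The other 3 probes gave -0.024, -0.16 and -0.17, and the last of these was lower in all 3 pairs (adjusted p = 0.319). All 4 values of *GRF6* were thus below 0, although that of the brightest probe turned to 0.02 or 0.038 when arrays were scaled to their 75th percentile.

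*GRF8* (kappa, AT5G65430), which together with the lambda protein is known to bind and hold back the salt tolerance kinase SOS2, gave 5633, 4538 and 4160.1 in SS and 6467, 4532 and 4322 in SL. SL was above SS in replicates 1 and 3 and level with it in replicate 2, and the log2 fold change was 0.084 (SE 0.086, 95% interval -0.12 to 0.29, adjusted p = 0.588). Its other probes gave -0.054 and 0.074, so the probes of the gene did not share a sign.

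*GRF2* (omega, AT1G78300), a non-epsilon member, had the largest positive value of the 9 genes. It read 1960.4, 2731 and 1640 in SS and 2587, 2669 and 1810.1 in SL, which put SL above SS in replicates 1 and 3 and slightly below it in replicate 2. The ratio SL/SS was 1.32, 0.977 and 1.1 in the 3 pairs. The log2 fold change was 0.17 (SE 0.11, 95% interval -0.09 to 0.43, adjusted p = 0.382), and the second probe gave 0.095 (adjusted p = 0.606). *GRF2* and *GRF8* were the genes that kept their sign at the brightest probe, at a positive value, under all 14 alternatives of the processing, with log2 fold changes between 0.055 and 0.29 and between 0.011 and 0.16.

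*GRF1* (chi, AT4G09000), *GRF5* (upsilon, AT5G16050) and *GRF7* (nu, AT3G02520) had 1 probe each. *GRF1* read 1746, 2434 and 1494 in SS and 1737, 1949 and 1669 in SL, a log2 fold change of -0.056 (95% interval -0.33 to 0.22, adjusted p = 0.797). Its SL value fell clearly short of SS only in replicate 2, and without that pair the value was 0.076. *GRF5*, whose product is known to bind the flowering regulator CONSTANS, read 1940.1, 2450.4 and 2864 in SS and 2127, 2503 and 2682 in SL, a log2 fold change of 0.023 (95% interval -0.19 to 0.24, adjusted p = 0.901). In both groups its signal was lowest in replicate 1 and highest in replicate 3. *GRF7* read 220.2, 350.1 and 259.5 in SS and 229.6, 337 and 263 in SL, the lowest signals among the 9 genes, with a log2 fold change of 0.0086 (95% interval -0.19 to 0.21, adjusted p = 0.96). Its pairs differed by no more than the ratios of 0.964 and 1.04.

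In the epsilon group, *GRF9* (mu, AT2G42590), another known partner of CONSTANS, read 16629, 10141 and 13753 in SS and 15321, 8739 and 14186 in SL at the brightest of its 3 probes. Replicate 2 was again low in both groups, and SL was below SS in replicates 1 and 2 only. The log2 fold change was -0.096 (SE 0.09, 95% interval -0.31 to 0.12, adjusted p = 0.554), while the other 2 probes gave -0.13 and 0.13. The 3 probes were annotated to 3 different transcripts of the gene, and which transcripts each probe detects was not tested. *GRF10* (epsilon, AT1G22300) read 5976, 6894 and 5093 in SS and 5642, 6634 and 5362 in SL, with a log2 fold change of -0.022 (SE 0.083, 95% interval -0.22 to 0.18, adjusted p = 0.902). Its second probe gave -0.089 and was, as the first, highest in replicate 2 of both groups.

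**Figure D1:**
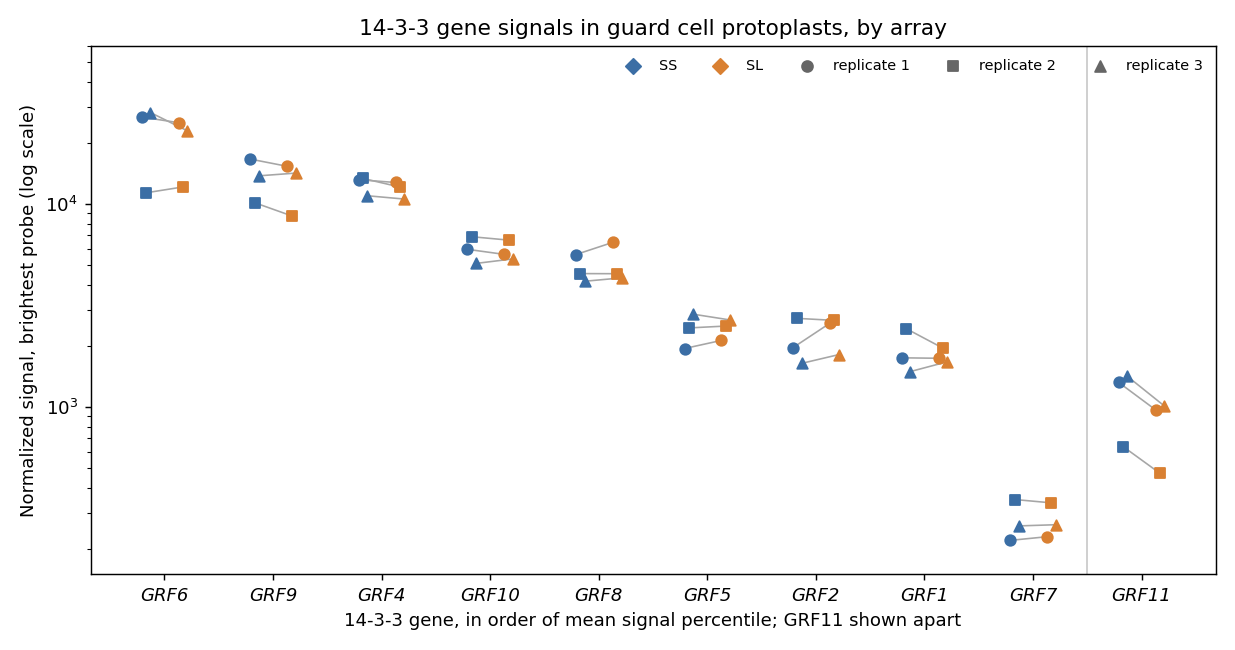
Normalized signal (log scale) of the brightest probe of each gene on the 3 SS and the 3 SL arrays, with lines joining the samples of one plant batch (marker shape gives the replicate). Among *GRF1* to *GRF10*, only the lines of *GRF4* all run one way, falling slightly from SS to SL. The lines of *GRF11*, shown apart, all fall as well.

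Across *GRF1* to *GRF10*, 5 of the 9 measured genes were below and 4 above 0 at the brightest probe, and their median log2 fold change was -0.022, beside 0.01 over all probes kept, but with arrays scaled to their 75th percentile 8 of 9 genes were above 0, with a median of 0.077 from the processed and 0.053 from the normexp intensities. Under these 2 scalings the median over all probes was 0.027 and 0.081. Their 19 probes lay between -0.17 and 0.17, and 17335 of the 28852 probes kept (60.1%) had a change no larger than the largest of these. The groups overlapped at all 19 probes, where 2528 of 28842 probes (8.76%) had groups that did not overlap. The intervals of the paired fit reached from an SL/SS ratio of 0.742 to 1.35 over the 19 probes, and without the block from 0.457 to 1.95. These are the outermost bounds over the 19 probes, and single probes had narrower intervals. For a single gene, 3 pairs allow no exact permutation p below 0.25 (two-sided) and 3 arrays against 3 none below 0.1. Neither test could thus reach 0.05 for any probe. For groups, the 19 probes gave 0.3 or more.

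**Figure D2:**
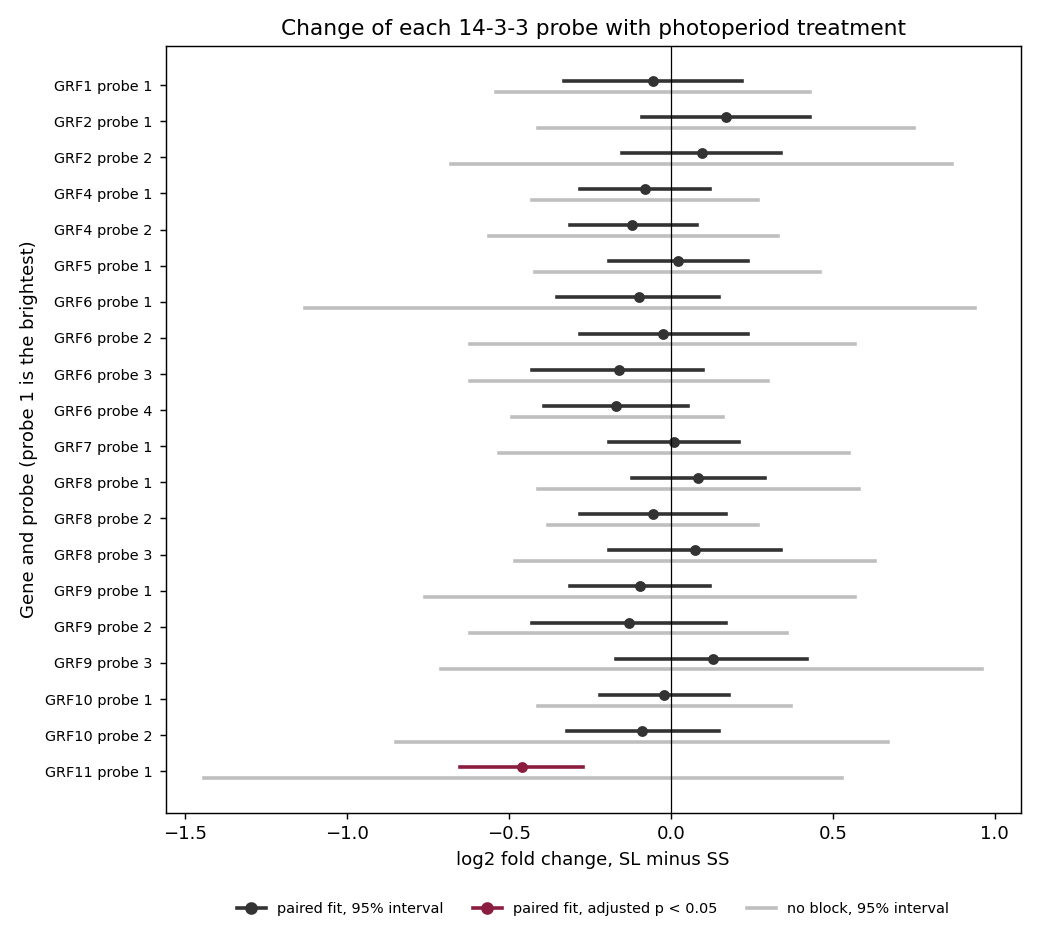
Log2 fold change (SL minus SS) of each 14-3-3 probe with its 95% interval from the paired fit (dark, with point) and from the fit without the block (grey), probe 1 being the brightest of its gene. The intervals of all 19 probes of *GRF1* to *GRF10* hold 0, and that of *GRF11* lies at -0.65 to -0.27 in the paired fit and holds 0 without the block.

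Signals spread more between replicate numbers, each a plant batch and in part a slide, than between the photoperiod groups, as for most genes on the arrays. At the brightest probe, the range over the 3 batches (each the mean of its SS and SL sample on the log2 scale) exceeded the size of the SL minus SS change for 9 of 9 genes and 19 of 19 probes, as it did for 88.2% of all genes. A range over the 3 batches tends to exceed a difference between the groups even where batches do not differ. The batch range of the 9 genes had a median of 0.51, that is 1.42-fold, beside 0.43 over all genes at their brightest probe. It was widest for *GRF6* at 1.15, or 2.21-fold, and narrowest for *GRF4* at 0.27, or 1.2-fold.

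The members did not rank the batches alike. Replicate 2 was the lowest batch for *GRF6* (-0.75 from the mean of the gene) and *GRF9* (-0.44), and the highest for *GRF1* (0.26), *GRF2* (0.3), *GRF7* (0.34) and *GRF10* (0.2). Replicate 3 was lowest for 5 of 9 genes, namely *GRF1*, *GRF2*, *GRF4*, *GRF8* and *GRF10*. The summed mesophyll markers were also lowest in replicate 2 of both groups. So were some guard cell markers, among them *MYB60* and *KAT1*, while others, such as *SLAC1*, were lowest in replicate 1 of both. The part of any of these in the batch differences was not tested. At *GRF6* the batch range itself depended on the probe, from 1.15-fold to 2.21-fold over its 4 probes. The brightest of these was annotated to another transcript than the other 3.

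**Figure D3:**
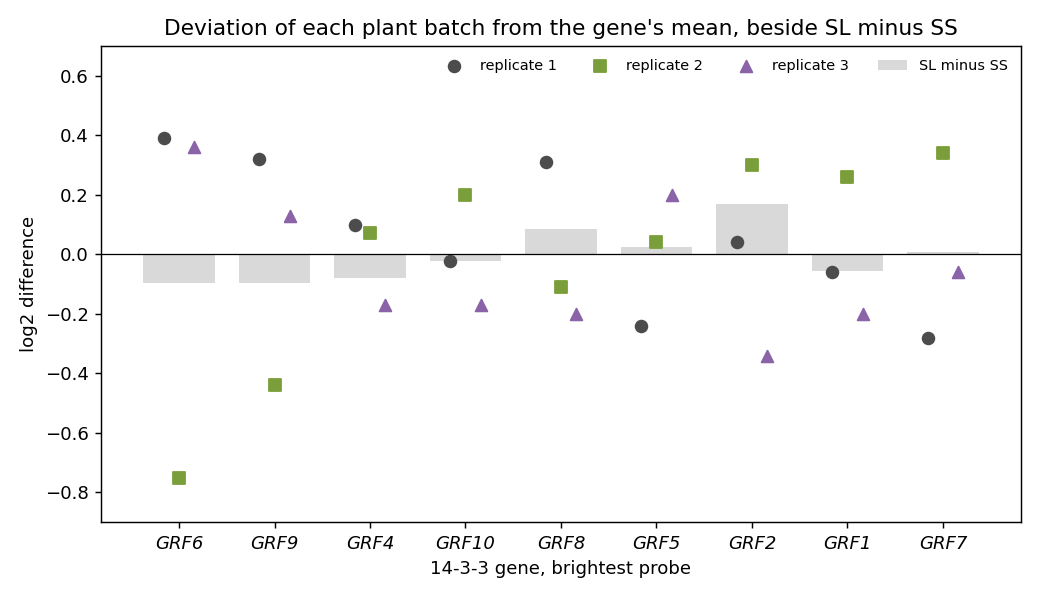
Log2 deviation of each plant batch from the mean of the gene (points, brightest probe) and the log2 fold change SL minus SS (grey bars) for 9 genes. Points spread wider than the bars for all 9 genes, and replicate 2 lies lowest for *GRF6* and *GRF9* and highest for *GRF1*, *GRF2*, *GRF7* and *GRF10*.

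The order of the signals was also taken, as the percentile of each probe among all 43603 probes of its array. Probes differ in how strongly they bind their target, so the order is one of probe signals and not of transcript amounts. The brightest probes stood at a mean percentile of 98.9 for *GRF6*, 98.3 for *GRF9*, 98.2 for *GRF4*, 96.1 for *GRF10* and 95.2 for *GRF8*, followed by 90.4 for *GRF5*, 89.5 for *GRF2*, 87.7 for *GRF1* and 58.7 for *GRF7*. *GRF6*, *GRF9* and *GRF4* held the first 3 places on every array, and *GRF1* and *GRF7* the last 2 on every array. In this order, neighbours had ranges over the 6 arrays that did not overlap only between *GRF4* and *GRF10*, between *GRF8* and *GRF5* and between *GRF1* and *GRF7*.

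The order was nearly the same in both groups. *GRF6* was brightest on 5 of 6 arrays, all but SS replicate 2, where *GRF4* was. *GRF8* and *GRF10* exchanged places on SL replicate 1, and *GRF2* read above *GRF5* in replicates 1 and 2 of both groups but below it in replicate 3 of both. Probes of 1 gene differed by up to 16.9 percentile points for *GRF8* and 16.3 points for *GRF6*, where the brightest probe was 16.7-fold brighter than the dimmest, so that all steps between neighbouring genes but the last were smaller than the spread within a gene. This last step, down to *GRF7*, from a lowest percentile of 85.6 for *GRF1* to a highest of 63.2, was larger than this spread, but *GRF7* was read by 1 probe. 14-3-3 genes resemble each other in their coding sequence, the probe sequences were not used here, and binding of a probe to transcripts of a related member was not tested.

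**Figure D4:**
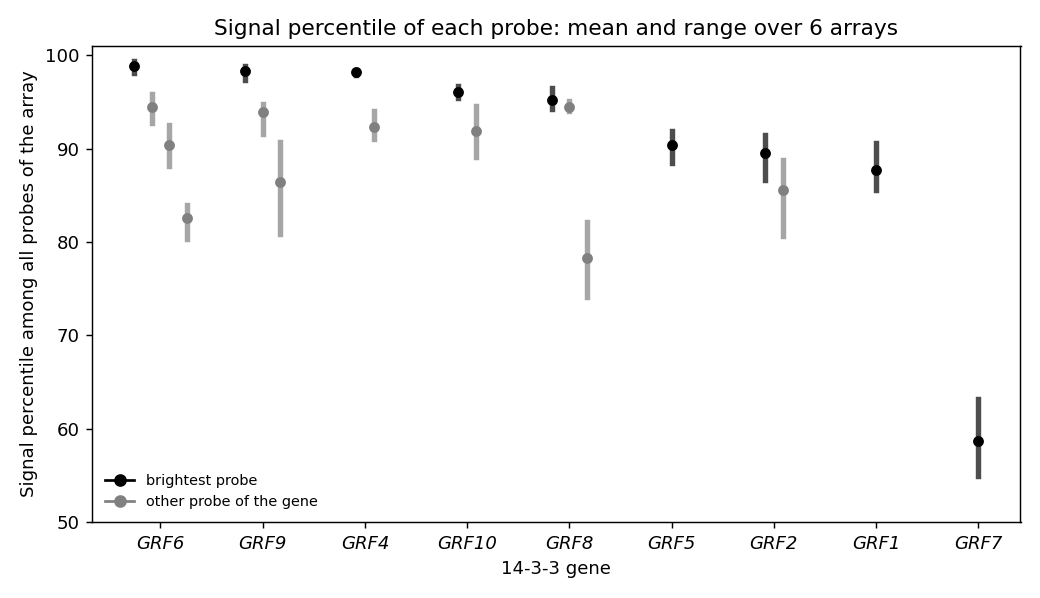
Signal percentile of each 14-3-3 probe among all probes of its array, as the mean (points) and range (bars) over 6 arrays, with the brightest probe of each gene in black and its other probes in grey. Brightest probes run from 98.9 for *GRF6* to 58.7 for *GRF7*, and other probes of *GRF6*, *GRF8* and *GRF9* reach down to 82.6, 78.3 and 86.4.

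The remaining genes of the 14-3-3 family were examined beside these members. *GRF11* (omicron, AT1G34760), an epsilon group gene, was measured by 1 probe and read 1320, 638 and 1414 in SS and 967, 471 and 1011 in SL. Each SL sample was below the SS sample of its batch, with SL/SS ratios of 0.733, 0.737 and 0.715, while the groups overlapped because replicate 2 was low in both. *GRF11* was lower in SL by the paired *limma* fit (log2 fold change -0.46, SE 0.079, 95% interval -0.65 to -0.27, adjusted p = 0.0377). Without the block the adjusted p was 1, without replicate 1 it was 0.162 and without replicate 2 it was 0.207, and 9 of 14 alternatives ended the call, while the log2 fold change stayed between -0.51 and -0.44 under all 14. The summed mesophyll markers were lower in SL in all 3 pairs too, though not *CA1* and *GLDP1* among them, and so were the summed epidermis markers. The part of either in the value of *GRF11* was not tested. The probes of *GRF12* (iota, AT1G26480), *GRF13* (pi, AT1G78220) and *GRF14* (AT1G22290) were not well above background on all arrays of either group. At normalized signals of 76.4 to 95.6 on all 6 arrays they were not tested, and 1 of the 2 probes of *GRF12* was above background on 1 SL array.

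Genes whose products bind 14-3-3 proteins or act in the blue light pathway were taken as a list of 51, of which 45 passed the filter on dim probes. By the paired fit, 0 of the 45 were higher and 2 were lower in SL, that is 4.44% of the list beside 4.72% of all genes, and 0 of 45 passed without the block. The median log2 fold change was -0.055 over the 45 genes. *AHA6*, *FT*, *TSF*, *FD*, *FDP* and *BKI1* were not well above background on all arrays of either group.

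Among the light receptors, *PHOT2* (AT5G58140, phototropin 2) read 1410.1, 1077 and 1715 in SS and 1013, 754 and 1031 in SL. Every SL array was below every SS array, with a log2 fold change of -0.58 (SE 0.091 and adjusted p = 0.0308). Its other 2 probes gave 0.09 and -0.19 (adjusted p = 0.561 and 0.258). They were dimmer, at mean percentiles of 48.1 and 44.7 beside 81.8 for the brightest, and whether this reduced their change was not tested. With the mean of all 3 probes of *PHOT2* the value was -0.22 and the call was lost (adjusted p = 0.162). The call was also lost without replicate 1 (0.112) and without replicate 2 (0.182), and under 9 of 14 alternatives in all. *PHOT1* (AT3G45780, phototropin 1) gave -0.47 at its brightest probe (adjusted p = 0.115). Its second probe gave -0.15 (adjusted p = 0.453) and was dimmer, at a mean percentile of 43.7 beside 89.5. *BLUS1* (AT4G14480), a kinase phosphorylated by phototropins in guard cells, gave -0.18 (adjusted p = 0.332).

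Among the H+-ATPases, *AHA3* (AT5G57350) read 505, 406 and 491 in SS and 334, 316 and 305 in SL. Here too every SL array was below every SS array, with a log2 fold change of -0.55 (SE 0.096 and adjusted p = 0.0396), a call that was lost under 9 of 14 alternatives, among them without replicate 1 (adjusted p = 0.169), without replicate 2 (0.162) and without the block (adjusted p = 1). Under all 14 its log2 fold change lay between -0.77 and -0.48. *AHA1* (AT2G18960), the main isoform of blue-light-driven stomatal opening, gave -0.42 at its brightest probe (adjusted p = 0.176) and -0.55 at its second (adjusted p = 0.0492), and the dimmest of its 3 probes gave -0.14 (adjusted p = 0.705). *AHA2* (AT4G30190) gave -0.11 at its brightest probe (adjusted p = 0.625), which turned to 0.014 with the processed intensities scaled to their 75th percentile. The second probe of *AHA2*, at a mean percentile of 87.2 beside 90.1, gave 0.0096 (adjusted p = 0.969). *AHA5* (AT2G24520) gave 0.046 (adjusted p = 0.885). The lower mesophyll marker sum in SL, where 9 of the 11 markers read lower, stands beside the values of *PHOT2* and *AHA3* too. Lower in SL, without a call, were also 8 of 12 guard cell markers (4 higher, median log2 fold change -0.11) and 5 of 5 epidermis markers (median -0.4). The part of these markers in the values of *PHOT2* and *AHA3* was not tested.

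**Figure D5:**
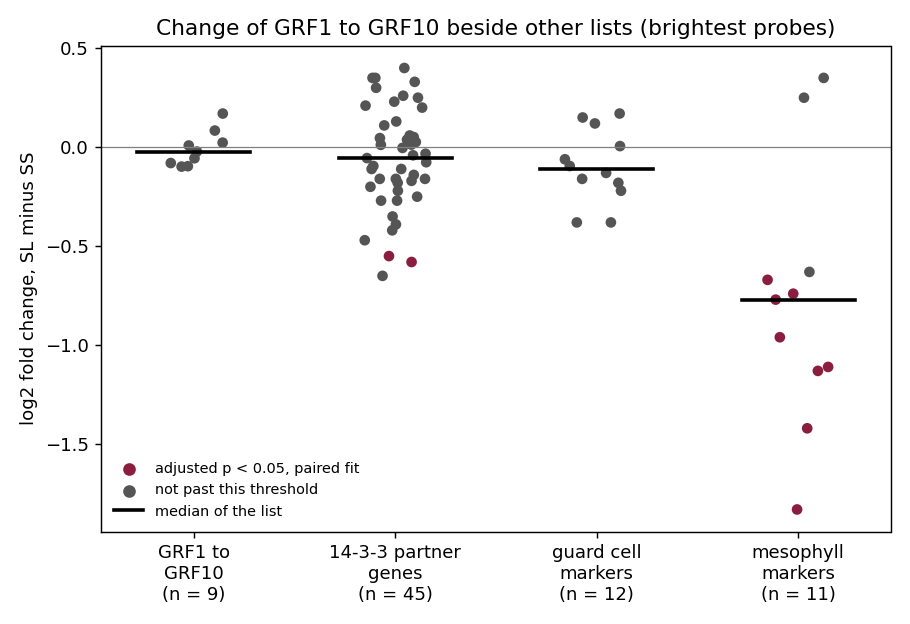
Log2 fold change (SL minus SS, paired fit) of the brightest probe of each gene among *GRF1* to *GRF10* (9 genes measured), the partner list (45), the guard cell markers (12) and the mesophyll markers (11), with calls in red and the median of each list as a bar. The 9 genes lie between -0.098 and 0.17 with 0 calls, and 8 of the 11 mesophyll markers are called lower.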

How the data were processed

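The authors scanned the arrays and read the spots out with Feature Extraction 11.5.1.1 from Agilent. Deposited intensities comprise the median pixel intensity of a spot, the local background median and a processed intensity, none normalized between arrays, and the series matrix repeats the processed intensity. The study's methods name *limma* for normalization.

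In R 4.3.3 with *limma* 3.58.1, median intensities were background corrected by normexp (offset 50, all spots), controls were dropped, log2 values were quantile normalized over 6 arrays, outlier spots (3 to 7 per array) were removed and spots of a probe were averaged. A filter kept 28852 of 43603 probes, those for which either group had 3 of 3 arrays well above background. A RefSeq table matched 34348 probes (78.8%) to genes by the identifiers in the files. The brightest probe stood for a gene. Files and table name different builds, so no coordinates are given. The number of arrays limits the precision.

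The members, gene lists, tests and the use of the replicate number as a block were chosen with earlier results of these data known, including that the fit without the block called 0 probes. The order of the normalization steps was then chosen, after calls had been seen, so that the count of calls equalled that of an earlier processing. The other orders and 2 other *limma* settings, 12 alternatives in all, were added for this reason. Further alternatives were scalings, filters, the methods' t-test, a block for the slide and leaving out each replicate. The text names all members, *GRF11* to *GRF14*, called partner genes, *AHA1*, *AHA2*, *AHA5*, *PHOT1*, *PHOT2* and *BLUS1*, and markers at or below background. *MYB60* and *KAT1* are named as examples, and *SLAC1* and the named mesophyll markers were chosen after their values were seen.

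The replicate numbers pair the samples by plant batch, as the series description gives it. Deviations of same-numbered arrays from their group means correlated at 0.71, 0.855 and 0.739 across probes, and others at -0.58 to -0.161. Deviations cancel within each group at every probe, so positive values at equal numbers bring negative ones elsewhere. The fit was also run on simulated data with known changes. These were drawn with the same replicate blocks, so the run cannot test whether the blocks are right. Its count of false calls depended on how the spreads were drawn and is not given here.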

Additional observations from a re-analysis of the deposited data

How the results depend on the processing

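The counts of 0 called genes and 0 called probes of *GRF1* to *GRF10* were the same under all alternatives that could give them, including 12 added after seeing the data, and of 126 member values 111 kept their sign. The lowest adjusted p of a member gene was 0.195. The 12 added alternatives gave between 1180 and 1353 calls over all probes and 2 called partner genes each, and reversed none of the gene values given here. Over all probes, 1297 calls fell to 0 without the replicate block, with the slide as a block and by the methods' t-test, to 561 and 47 with processed and normexp intensities scaled to the 75th percentile and to 685 with the series matrix, and lay between 0 and 2609 when 1 replicate was left out. The t-test gave 1365 of 28842 probes at an unadjusted p under 0.05, 0 of them for a member gene, a count not set apart from this share. Without replicate 2 there were 0 calls, without replicate 1 there were 51 and without replicate 3 there were 2609. Called partner genes numbered 0 without the replicate block, with either scaling, the series matrix, the slide block or the t-test, 1 without the filter and 1 with the mean of probes, and 0 to 5 with 1 replicate left out.

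With processed intensities scaled to the 75th percentile, the median of *GRF1* to *GRF10* was 0.077, and the log2 fold changes turned to 0.022 for *GRF1*, 0.11 for *GRF4*, 0.02 for *GRF6*, -0.005 for *GRF7*, 0.048 for *GRF9*, 0.13 for *GRF10* and 0.014 for *AHA2*. With normexp intensities so scaled, the median was 0.053, with 0.053 for *GRF4*, 0.038 for *GRF6*, 0.036 for *GRF9* and 0.066 for *GRF10*. The cause was not tested. Leaving out 1 replicate gave ranges that crossed 0 for *GRF1* (-0.16 to 0.076), *GRF5* (-0.032 to 0.082), *GRF6* (-0.2 to 0.0023), *GRF7* (-0.017 to 0.04), *GRF10* (-0.069 to 0.0093), *AHA2* (-0.2 to 0.061) and *AHA5* (-0.17 to 0.23).

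Few arrays limit these values. The signals of *GRF7* were the lowest of the measured genes, though well above background on all 6 arrays, and whether this reduced its change was not tested. Without the replicate block, intervals of the 19 probes widened to ratios of 0.457 to 1.95.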
